A study of Mus musculus with 20 samples.

Results

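Toll-like receptors were followed in monocyte-derived macrophages (MoMac) of the fibrotic mouse liver through 10 genes chosen by symbol: the surface receptors *Tlr1*, *Tlr2*, *Tlr4* and *Tlr6*, the endosomal receptors *Tlr7*, *Tlr8*, *Tlr9* and *Tlr13*, the co-receptor *Cd14* and the adaptor *Myd88*. Each symbol matched 1 of the 59311 rows of the expression table. All 10 mice were of strain C57BL/6 (C57BL/6 J in the methods of the study) and had received CCl4, a hepatotoxin, for 4 weeks, so that the vehicle group is fibrotic as well and no healthy liver was measured. Vehicle was given to mice 11 to 15 and Ac-6-FP to mice 16 to 20. Ac-6-FP binds the antigen-presenting molecule MR1 without activating mucosal-associated invariant T (MAIT) cells, and so inhibits them. From every liver, F4/80+CD11b+ macrophages, gated as negative for CD3, CD11c and Ly6G, were sorted into a Ly6Chi and a Ly6Clo fraction, which gave 4 groups of 5 libraries. The questions were whether the receptors differ between the subsets of 1 liver, and whether they change in either subset when MAIT cells are inhibited.

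Toll-like receptors recognize conserved microbial molecules. At the cell surface, TLR2 pairs with TLR1 or TLR6 to bind bacterial lipopeptides, while TLR4 binds lipopolysaccharide handed over by LBP and CD14 and held by MD-2, the product of *Ly96*. In endosomes, TLR7 senses single-stranded RNA, TLR9 unmethylated CpG DNA and mouse TLR13 bacterial ribosomal RNA. These receptors signal through MyD88 to NF-kappaB, and TLR4 also through TRIF, the product of *Ticam1*. In the liver they are best known for the response of macrophages to gut-derived bacterial products.

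Between 5693049 and 18682437 reads were counted on genes per library. The Ly6Clo vehicle library of mouse 13 stood apart: it had the fewest reads, and 5343 genes above 0 where the other 19 libraries had 9017 to 15766. *Tlr1*, *Tlr2*, *Tlr4* and *Tlr6* were all listed at 0 in it, so values without this mouse are given where leaving it out changes a call or moves a value. The sort was checked on *Ly6c2*, which encodes a Ly6C antigen and lay at 4930 to 10012 normalized counts (reads divided by the size factor of the library) in Ly6Chi and 284 to 1014 in Ly6Clo libraries. The macrophage gene *Cd68* lay between 10208 and 16854 in all 20 libraries, and *Adgre1*, which encodes F4/80, between 1058 and 7223. Of other macrophage genes, *Itgam*, which encodes CD11b, fell to 2.09 in a Ly6Clo library and reached 4759, and *Csf1r* ran from 874 to 20548. *Fcgr1* had medians of 825 in Ly6Chi and 395 in Ly6Clo. Levels in RNA from sorted cells do not separate fewer expressing cells from less RNA per cell.

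Neighbouring receptor genes can share reads. *Tlr1* and *Tlr6* lie side by side on the minus strand of chromosome 5 (mm10), and their longest GENCODE transcripts share an exact run of 229 bases. The run is coding in both genes, at chr5:64925537-64925765 in *Tlr1* and at chr5:64953828-64954056 in *Tlr6*. It is shown because a read that falls inside it cannot be assigned to 1 of the genes by its own sequence. The study sequenced reads in pairs, so a mate that lies outside the run can place such a read.
*Tlr1* and *Tlr6*, shared run: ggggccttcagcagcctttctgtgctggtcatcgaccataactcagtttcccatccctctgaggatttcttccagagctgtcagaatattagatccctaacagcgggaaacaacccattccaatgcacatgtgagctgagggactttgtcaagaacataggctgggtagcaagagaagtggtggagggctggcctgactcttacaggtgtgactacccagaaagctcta
Of all 75-base windows, the length of a read, 11.5% of *Tlr1* and 9.44% of *Tlr6* occur in both transcripts. Counts of these genes are therefore uncertain to the extent that such reads were split between them or dropped. No other pair of the 8 receptors shared a run longer than 18 bases.

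The promoters of *Tlr2* and *Tlr13* are shown because *Tlr2* was higher in Ly6Chi MoMac in every mouse and *Tlr13* was the receptor that passed the test between subsets. A RefSeq window (GRCm38.p6, 250 bases before to 50 after the start) was at hand for 7 of the 10 genes. In it, 4 motifs were searched on both strands: the PU.1 core GAGGAA, a kappaB site (GGGA and CC with 4 free bases between them), an AP-1 site TGANTCA and an interferon response element (GAAA and GAAA with 2 free bases between them). The part that lies upstream of the first annotated GENCODE start is printed 5′ to 3′ on the strand of the gene, with motif letters in capitals, at chr3:83841768-83841858 (minus strand) for *Tlr2* and at chrX:106143025-106143203 (plus strand) for *Tlr13*.
*Tlr2*: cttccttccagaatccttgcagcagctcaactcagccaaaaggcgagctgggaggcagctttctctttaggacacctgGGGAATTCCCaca
*Tlr13*: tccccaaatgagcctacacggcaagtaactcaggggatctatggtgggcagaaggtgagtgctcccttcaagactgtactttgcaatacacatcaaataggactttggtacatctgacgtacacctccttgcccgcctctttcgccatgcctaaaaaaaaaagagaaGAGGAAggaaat
The window of *Tlr2* held 2 kappaB matches, the first of them in the printed part, and none of the other motifs. That of *Tlr13* held 1 PU.1 core and no other match. Among 32851 promoter windows of the same length, 20.7% held the kappaB letters and 28.3% the PU.1 core, so that neither match is rare. AP-1 letters were found in 7.81% and the interferon response element in 3.44% of windows. A match describes the letters only.

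Per kilobase of annotated exon, *Cd14* was the most abundant of the 10 transcripts, with a median of 9950 normalized counts per kilobase in Ly6Chi and 5574 in Ly6Clo libraries. *Tlr13* followed with 2126 and 1306, and *Tlr2* with 1409 and 816, and the library ranges of these 2 receptors overlap. *Myd88* (594 and 366), *Tlr7* (535 and 338) and *Tlr8* (423 and 267) formed a middle tier, again with overlapping ranges. *Tlr6* (258.5 and 149), *Tlr4* (208 and 99.3) and *Tlr1* (163 and 130) were lower, and the ranges of these neighbours overlapped too. *Tlr9*, the receptor for CpG DNA, was near the detection limit. It was listed at 0 in 7 of 10 Ly6Chi libraries and 4 of 10 Ly6Clo libraries, and the highest value anywhere was 14.7 normalized counts. It did not reach a mean of 10 in any group and was not tested, which left 9 genes. The exon lengths are those of GENCODE, not the regions on which reads had been counted, so the order within a tier is approximate.

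**Figure D1:**
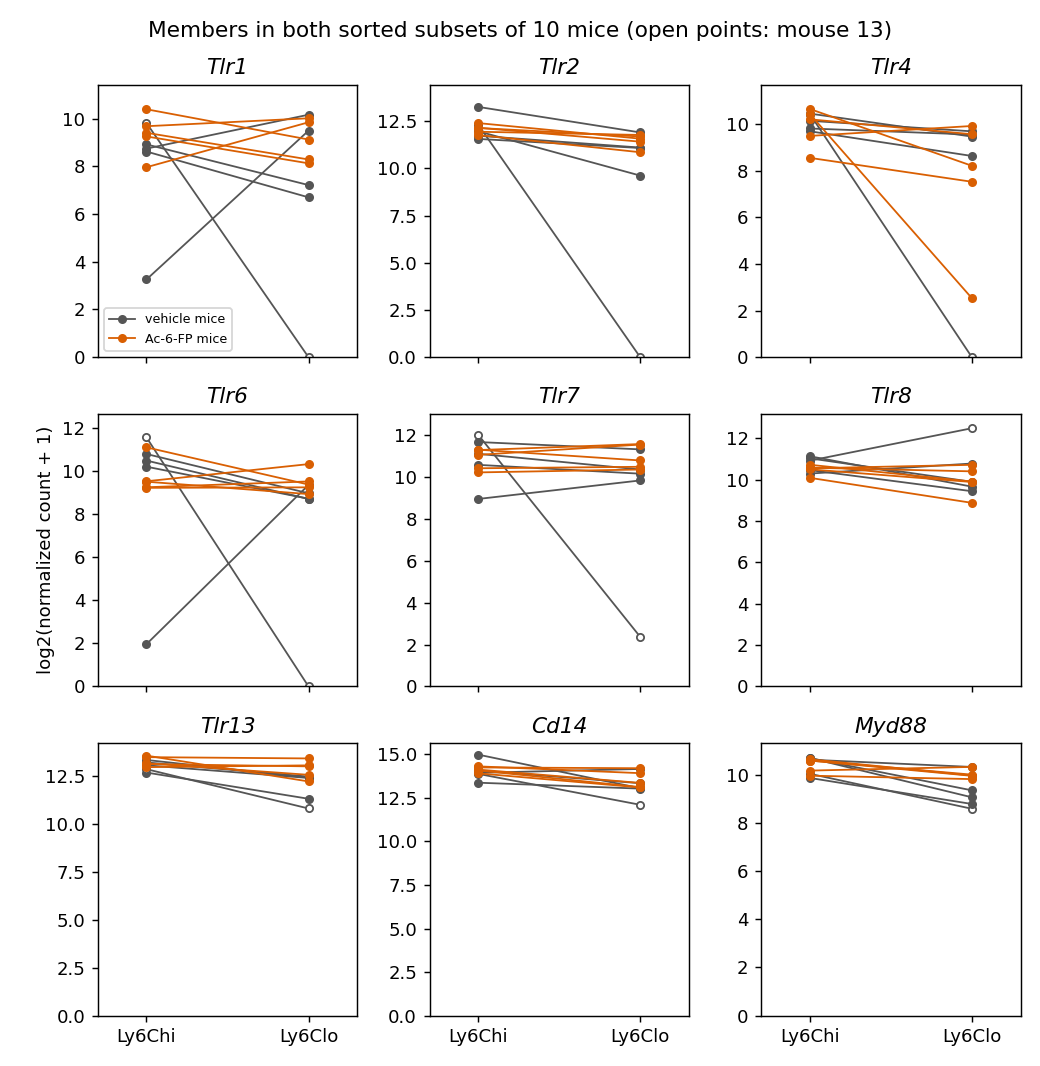
Levels of 9 genes as log2(normalized count + 1) in the Ly6Chi and Ly6Clo library of each mouse, joined by a line (grey, 5 vehicle mice; orange, 5 Ac-6-FP mice; open points, mouse 13). *Tlr2* was lower in the Ly6Clo library in 10 of 10 mice and *Tlr13*, *Cd14* and *Myd88* in 9, while *Tlr1*, *Tlr2*, *Tlr4* and *Tlr6* reach 0 in the Ly6Clo library of mouse 13.

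*Tlr13* and *Cd14* were higher in Ly6Chi than in Ly6Clo MoMac of the same mouse, by 0.78 and 0.75 on the scale of log2(normalized count + 1), in 9 of 10 mice each. In Ly6Chi libraries *Tlr13* (GSMG0042011, chromosome X from 106143273 to 106160493 of mm10) ranged from 6632 to 12239 normalized counts (median 9149), and in Ly6Clo libraries from 1805 to 11056 (median 5620). The subsets overlap as groups, but in 9 mice the Ly6Chi library was the higher of the pair, and in mouse 17 the values were 8066 and 8601. The difference had a standard error of 0.19 (n = 10 mice, limma, adjusted p = 0.0319). *Cd14* (GSMG0018859, chromosome 18 from 36725067 to 36726815) ranged from 10612 to 32429 (median 17234) in Ly6Chi and from 4406 to 18872 (median 9654) in Ly6Clo libraries. Its difference also had a standard error of 0.19 (n = 10 mice, limma, adjusted p = 0.0368), and the exception was mouse 12, with 15743 in Ly6Chi and 18339 in Ly6Clo. These were 2 of the 9 genes tested, against a background of 1.76% of all 17248 genes tested that passed as higher in Ly6Chi and 3.44% that passed as lower. All 9 differences were above 0, with a median of 0.78, where the median of all genes was -0.03 and 8424 of 17248 were above 0. Without mouse 13, *Tlr1* and *Tlr6* were at -0.30 and -0.12 and *Tlr7* at 0.02, and the median of all genes was -0.17.

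The calls depended on the fit and on single mice. With edgeR on the recovered reads 0 of the 9 genes passed (adjusted p = 0.0501 for *Tlr13* and 0.0575 for *Cd14*), and with limma 4 had an unadjusted p under 0.05, as 16.7% of all genes did, while none passed with mouse 11, 14, 15 or 16 left out. Over all alternatives the adjusted p ran from 0.006 to 0.432 for *Tlr13* and from 0.00881 to 0.64 for *Cd14*, and the differences stayed between 0.41 and 1.15 and between 0.59 and 0.91.

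*Tlr2* was the only one of the 9 genes to be higher in Ly6Chi MoMac in every mouse, a pattern that 1.87% of all genes tested showed, and 1.98% were higher in Ly6Clo MoMac in every mouse. The gene (GSMG0025567, chromosome 3 from 83836271 to 83841767) ranged from 3016 to 9775 normalized counts (median 4246) in Ly6Chi and from 0 to 3828 (median 2460) in Ly6Clo libraries. Leaving aside mouse 13, whose Ly6Clo value was 0, the ratio within a mouse lay between 1.13 and 5.09, with a median of 1.67. Over 10 mice the log2 difference was 2.02 with a standard error of 0.99, and limma gave an adjusted p of 0.332. A two-sided exact sign-flip permutation test over the 10 mice gave p = 0.00195, without adjustment for the number of genes. This is the smallest that 10 mice allow. Any gene higher in 1 subset in every mouse reaches it, so it restates that pattern. Without mouse 13 the difference was 0.88 with a standard error of 0.20 and passed (limma, adjusted p = 0.0201), and *Tlr13* passed as well (0.64, adjusted p = 0.0347), whereas *Cd14* did not (0.64, adjusted p = 0.0603).

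*Myd88*, the adaptor that most of these receptors share, had a difference of similar size that missed the threshold. The gene (GSMG0041437, chromosome 9 from 119335935 to 119341400) lay between 928 and 1647 normalized counts (median 1531) in Ly6Chi and between 382 and 1275 (median 942) in Ly6Clo libraries. The log2 difference was 0.77 with a standard error of 0.22 (limma, adjusted p = 0.0705), above 0 in 9 of 10 mice, and mouse 17 was the exception with 1147 and 1275. Without mouse 13 it was 0.69 (adjusted p = 0.0654). *Tlr4*, the lipopolysaccharide receptor, was also higher in Ly6Chi libraries in 9 mice, with 375 to 1607 (median 1156) against 0 to 969 (median 552). Its difference of 2.48 carried a standard error of 1.0 (limma, adjusted p = 0.225), since the Ly6Clo values of mice 13 and 18 were 0 and 4.78. Without mouse 13 it was 1.59, with an adjusted p of 0.259.

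The remaining receptors were not separated by subset. *Tlr8* was higher in Ly6Chi in 7 of 10 mice, with a log2 difference of 0.42 (95% interval -0.20 to 1.04), or 0.64 without mouse 13, whose Ly6Clo library held the highest value (limma, adjusted p = 0.119). *Tlr7* was higher in 5 of 10 mice, and its difference was 0.98 (-0.84 to 2.81) with mouse 13 and 0.02 without. *Tlr1* and *Tlr6*, which share sequence, were higher in 6 of 10 mice each, with differences of 0.71 (-1.71 to 3.12) and 1.05 (-1.67 to 3.77). Without mouse 13 these were -0.30 and -0.12, so that their direction rested on 1 library. Both genes also dropped out of single Ly6Chi libraries: *Tlr1* was at 8.56 in mouse 12 and *Tlr6* at 2.90 in mouse 14, where the other Ly6Chi libraries held 249 to 1343 and 600 to 3051.

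Markers of other cells moved with the subset. Summed levels of 6 T and NK cell genes were 0 to 812 in Ly6Chi and 39540 to 86104 in Ly6Clo libraries, higher in Ly6Clo in 10 of 10 mice. The sum was carried by *Gzma* and *Nkg7*. The NK cell genes *Klrb1c* (0 to 99.9 in Ly6Chi, 3438 to 11828 in Ly6Clo) and *Ncr1* (0 to 42.5 and 198 to 2744) did not overlap between subsets. *Cd3e* was at 0 in 18 of 20 libraries and at most 11.1 in the others. A list of 6 neutrophil genes gave 3444 to 7297 in Ly6Chi and 10387 to 125190 in Ly6Clo, mostly from *Retnlg*, with *Ly6g* at 192 or less throughout. For 6 dendritic cell genes the ranges were 27.4 to 535 and 6731 to 21808, mostly from *Cd209a* and *Ccr7*, while *Zbtb46* was at 0 in 16 of 20 libraries. *Csf3r*, a neutrophil gene too, had a higher median in Ly6Chi (414) than in Ly6Clo (176), and *S100a8* was at 3682 and 3600. Sums of 4 hepatocyte genes (medians 680 and 1662) and of 5 endothelial genes (140 and 1391) were higher in Ly6Clo in 10 and 9 of 10 mice. The endothelial sum was mostly *Pecam1* (medians 128 and 1204). *Kdr*, *Stab2* and *Cdh5* were at 0 in 17, 18 and 17 of 20 libraries, and *Clec4g* had medians of 0 and 99.2. The sort kept cells positive for F4/80 and CD11b and negative for CD3, Ly6G and CD11c, gates that are meant to leave out all of these cell types. In contrast, the sum of 5 monocyte and macrophage genes had a median of 24555 in Ly6Chi and 28607 in Ly6Clo libraries and was higher in Ly6Clo in 7 of 10 mice. The part of other cells in the lower Ly6Clo values of *Tlr13*, *Cd14* and *Tlr2* was not tested.

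**Figure D2:**
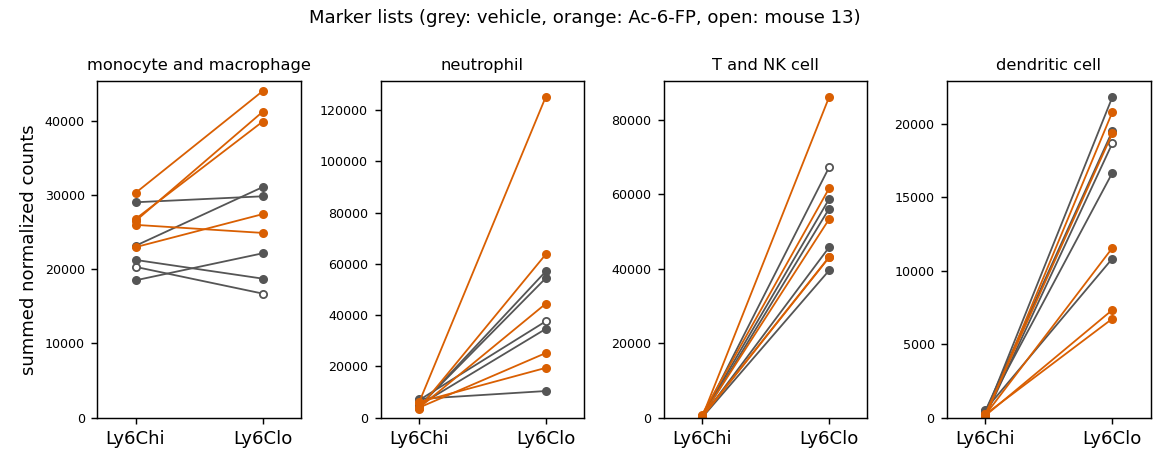
Summed normalized counts (linear axis from 0) of 4 marker lists in the Ly6Chi and Ly6Clo library of each mouse (grey, vehicle; orange, Ac-6-FP; open, mouse 13). T and NK cell, neutrophil and dendritic cell sums were higher in Ly6Clo in 10 of 10 mice, while the monocyte and macrophage sum lay between 16711 and 43970 over both.

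Around these receptors, 67 of 70 further genes of the pathway could be tested, and 3 passed as higher and 9 as lower in Ly6Chi MoMac, where 1.76% and 3.44% of all genes tested did. Of the 67, 57 reached the mean of 10 in both subsets, and 2 of these passed as higher and 7 as lower. *Lbp*, *Tlr11* and *Acod1* reached it only in the subset where they were high, so they had to differ and are given by their levels alone. Of 10 accessory proteins and chaperones that reached it in both subsets, 2 were higher and 2 lower. *Ly86*, which encodes MD-1, the partner of the TLR-like protein RP105, was higher in Ly6Chi in 10 of 10 mice by 0.90 (standard error 0.16, limma, adjusted p = 0.00381). Its values were 2718 to 4132 normalized counts in Ly6Chi and 1066 to 2648 in Ly6Clo libraries, with no overlap. *Hsp90b1*, the chaperone gp96 that folds Toll-like receptors, was higher by 0.39 in 10 of 10 mice (adjusted p = 0.0398). *Lbp*, the lipopolysaccharide-binding protein, was low: it was above 0 in 7 Ly6Chi libraries, at 335 or less, and in 1 Ly6Clo library, at 35.1. *Ly96* was higher in Ly6Chi in 9 of 10 mice, with an adjusted p of 0.213, which became 0.0334 without mouse 13 (difference 1.14).

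*Cd36*, a scavenger receptor and co-receptor of TLR2, was lower in Ly6Chi MoMac, with 0 to 301 normalized counts against 2479 to 5305 in Ly6Clo (adjusted p = 0.000546). *Ctsb*, an endosomal protease, was lower by 0.55 (adjusted p = 0.0124). Of the 4 other Toll-like receptor genes, *Tlr11* and *Tlr12* were listed at 0 in all 10 Ly6Chi libraries. *Tlr11*, a receptor for profilin, was above 0 in 7 Ly6Clo libraries, at up to 493, and *Tlr12* in 3. *Tlr3* was at 0 in 8 Ly6Chi and 5 Ly6Clo libraries and *Tlr5* in 6 and 9, and neither passed. None of the 5 other adaptors tested and none of the 10 inhibitors passed, with lowest adjusted p-values of 0.449 and 0.207 (limma), although 3 of the inhibitors had an unadjusted p under 0.05, and 1 of them, *Tnfaip3*, which encodes A20, passed without mouse 13 (-4.09, adjusted p = 0.0126). Of the 19 kinases and ubiquitin ligases only *Map3k8*, the kinase Tpl2, passed, lower in Ly6Chi by 1.53 and in 10 of 10 mice (adjusted p = 0.0316). Of the 5 transcription factors only *Nfkb1*, the p105/p50 subunit of NF-kappaB, passed, lower by 1.46 (adjusted p = 0.00384). Without mouse 13 the pathway count was 17, and that over all genes rose from 896 to 1162. Beside *Ly96* and *Tnfaip3*, the genes that passed then but not over all mice were *Unc93b1*, the chaperone of endosomal receptors (0.58, adjusted p = 0.0272), the endosomal protease gene *Lgmn* (-0.85, adjusted p = 0.00485) and *Nfkbia*, the NF-kappaB inhibitor and target (-0.86, adjusted p = 0.0179).

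Of 13 transcripts tested that these receptors are known to induce, 4 passed, all lower in Ly6Chi MoMac, 3 of them among the 11 that reached the mean of 10 in both subsets. Of these 3, *Il10* reached it in Ly6Chi through 1 library and is given by its levels alone. The difference was below 0 for 10 of the 11, with a median of -1.47, where 3.44% of all genes passed as lower and the median of all genes was -0.03. *Ccl4*, a chemokine, had 869 to 3459 normalized counts in Ly6Chi and 6363 to 24166 in Ly6Clo libraries, without overlap, and was lower in Ly6Chi by 2.51 (standard error 0.16, limma, adjusted p = 6.62e-07). *Cxcl2*, which attracts neutrophils, was lower by 1.69 in 10 of 10 mice (adjusted p = 0.0104). *Il10*, an anti-inflammatory cytokine, was above 0 in 1 Ly6Chi library, at 72.6, and reached up to 2028 in 9 Ly6Clo libraries. *Acod1*, which makes itaconate, was above 0 in 1 Ly6Chi library, at 4.47, and in 9 Ly6Clo libraries, at 2544 in mouse 13 and at up to 518 in the others. *Ccl4* is also a transcript of NK cells, which the F4/80 gate is meant to leave out. Their markers were higher in the Ly6Clo libraries, and their part in the result was not tested.

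**Figure D3:**
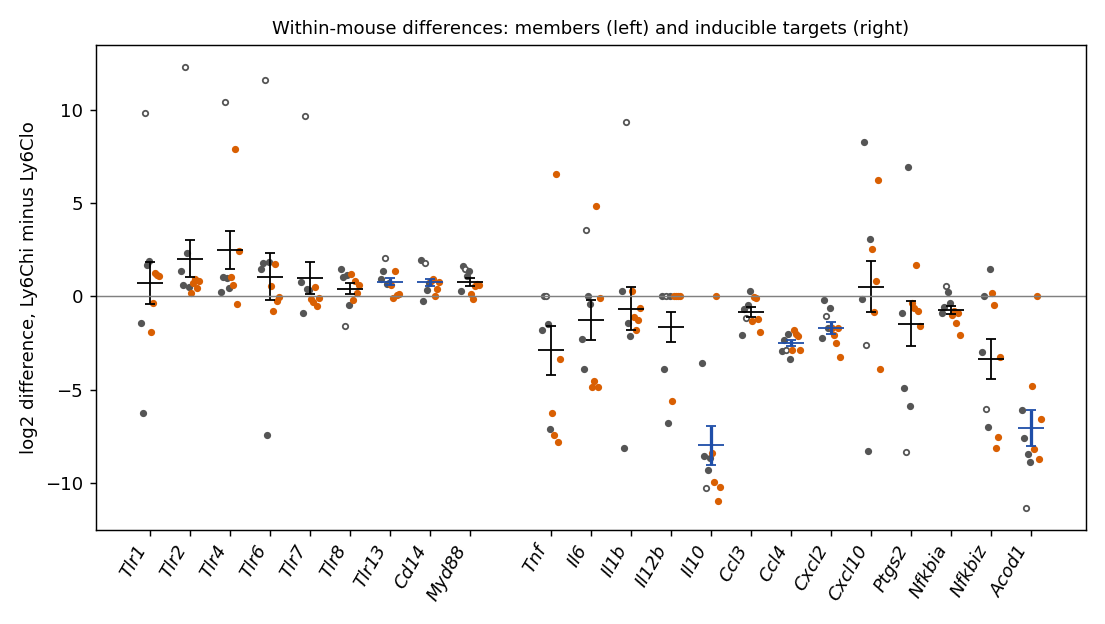
Within-mouse difference (Ly6Chi minus Ly6Clo, log2(normalized count + 1)) of the 9 genes (left) and 13 inducible targets (right), 1 point per mouse (grey, vehicle; orange, Ac-6-FP; open, mouse 13), with the mean and its standard error in blue where the adjusted p-value was under 0.05. All 9 means on the left lie above 0, although without mouse 13 those of *Tlr1* and *Tlr6* were -0.30 and -0.12. On the right the means of 10 of the 11 targets that reached a mean of 10 in both subsets lie below 0 (*Acod1* and *Il12b* did not reach it in Ly6Chi).

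Inhibition of MAIT cells was compared next. In Ly6Chi MoMac, 0 of the 9 genes passed between Ac-6-FP and vehicle mice (limma, lowest adjusted p = 0.685, and 0 with an unadjusted p under 0.05), and edgeR called 0 as well. Of all genes tested, 0.0754% passed and 8.73% had an unadjusted p under 0.05. The median change of all genes was 0.35, or -0.015 with quantile normalization. *Cd14* was at 32429, 15743, 15076, 10612 and 17213 normalized counts with vehicle and at 15411, 17254, 19474, 20324 and 17893 with Ac-6-FP, and the groups overlap. Its change was 0.08 on the log2 scale (95% interval -0.50 to 0.67). *Tlr13* changed by 0.23 (-0.13 to 0.59) and *Tlr2* by -0.09 (-0.77 to 0.60). *Myd88* changed by 0.01 (-0.48 to 0.50), with medians of 1569 with vehicle and 1530 with Ac-6-FP. *Tlr8* changed by -0.28 (-0.71 to 0.15). With the values as normalized by the authors, the intervals of these 5 genes leave out a change of 1 or more on the log2 scale in either direction. Those of *Tlr4* (-1.13 to 0.65), *Tlr7* (-1.26 to 1.24), *Tlr1* (-1.18 to 4.12) and *Tlr6* (-3.15 to 4.59) reach past it. No gene of the 9 had groups without overlap, where 1.35% of all genes tested did.

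In Ly6Clo MoMac, 0 of the 9 genes passed either (limma, lowest adjusted p = 0.528; 2 with an unadjusted p under 0.05; edgeR, 0), and 0.0522% of all genes tested did, with 9.31% at an unadjusted p under 0.05. The changes were above 0 for 8 of 9 genes, with a median of 0.97 beside 0.91 for all genes. Without mouse 13 the medians were 0.53 and 0.35. *Tlr13* was at 5517, 2567, 1805, 5451 and 5722 normalized counts with vehicle and at 6109, 8601, 4809, 11056 and 8299 with Ac-6-FP. Only the lowest Ac-6-FP library fell into the vehicle range. The change was 0.97 (95% interval 0.12 to 1.82, limma, unadjusted p = 0.0293, two-sided exact permutation test p = 0.0556), and 0.70 (-0.02 to 1.43) without mouse 13. *Myd88* was at 1274, 531.5, 382, 438 and 649 with vehicle and at 898, 1275, 1021, 995 and 986 with Ac-6-FP. Here the vehicle library of mouse 11 was nearly as high as the highest Ac-6-FP library, and the other 4 lay below all of them. The change was 0.79 (0.07 to 1.51, limma, unadjusted p = 0.035, exact permutation test p = 0.0397), and 0.63 (-0.05 to 1.31) without mouse 13.

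The number of genes detected moved with these values. It was 5343 to 15723 in Ly6Clo vehicle libraries and 11156 to 15766 in Ly6Clo Ac-6-FP libraries, and with it as a covariate the changes were 0.46 for *Tlr13* and 0.41 for *Myd88* (adjusted p = 0.949 for both). In the same libraries the sum of 5 monocyte and macrophage genes was 16711 to 31043 with vehicle and 24880 to 43970 with Ac-6-FP. Some other lists also reached higher with Ac-6-FP, with Ly6C-low macrophage genes at 6610 to 20539 and 14721 to 42390. Neutrophil genes were at 10387 to 57092 and 19427 to 125190, and endothelial genes at 0 to 2115 and 1008 to 4451. B cell genes were at 0 to 778 and 766 to 1131, and Kupffer cell genes at 0 to 337 and 187 to 808. Dendritic cell genes did not reach higher, at 10825 to 21808 and 6731 to 20789. Neither did Ly6C-high monocyte genes, at 8459 to 30684 and 14860 to 26931. The part of these in the values was not tested. *Cd14* changed by 0.40 (-0.43 to 1.24) in Ly6Clo MoMac and by 0.14 without mouse 13. The changes of *Tlr2*, *Tlr1*, *Tlr6* and *Tlr7*, of 2.15 to 2.72 with mouse 13, were 0.53 to 0.69 without it. For *Tlr6* the exact permutation test over all mice gave p = 0.0476, while limma gave an unadjusted p of 0.197. *Tlr4* went from 0.08 to -1.78, with intervals that span 0 in both. *Tlr8* was at 812, 696, 5764, 954 and 1764 with vehicle, the highest value being that of mouse 13, and its change was -0.49 with and 0.01 without this mouse. No gene of the 9 had groups without overlap, where 1.5% of all genes tested did.

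**Figure D4:**
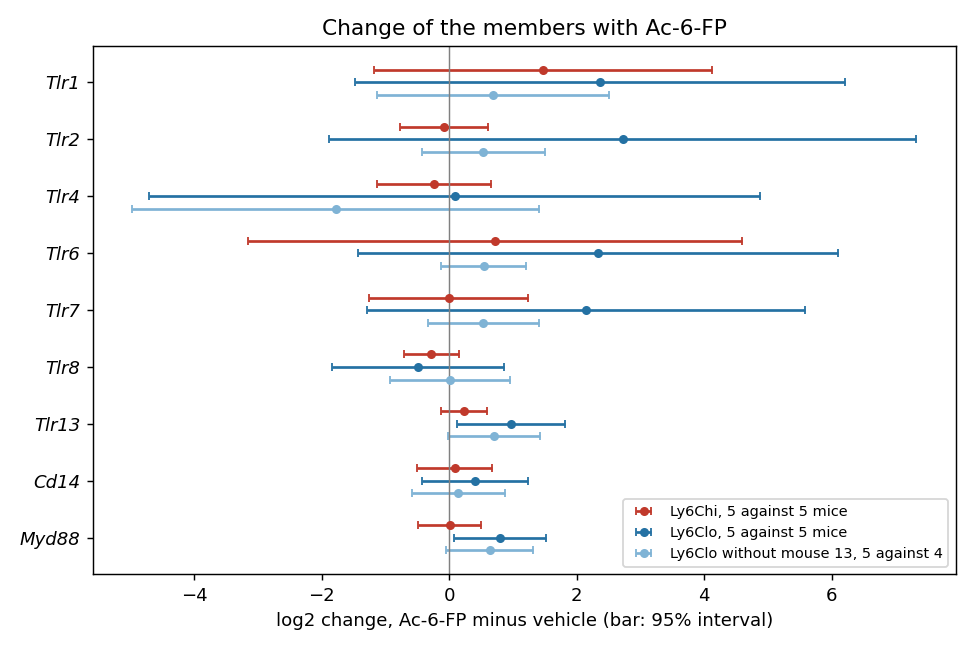
Change of 9 genes with Ac-6-FP (log2 scale, points, with 95% intervals as bars) in Ly6Chi MoMac (red), in Ly6Clo MoMac (dark blue) and in Ly6Clo MoMac without mouse 13 (light blue). Over all mice the intervals of *Tlr13* (0.12 to 1.82) and *Myd88* (0.07 to 1.51) in Ly6Clo MoMac lie above 0, and without mouse 13 each of the 9 intervals spans 0.

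Whether the response to Ac-6-FP differed between the subsets was tested on the within-mouse differences, 5 against 5 mice. None of the 9 genes passed (limma, lowest adjusted p = 0.83, 1 with an unadjusted p under 0.05; edgeR, 0), and 0.0% of all genes tested did, with 4.87% at an unadjusted p under 0.05. The change in Ly6Chi minus that in Ly6Clo was -0.74 for *Tlr13* (95% interval -1.46 to -0.02) and -0.78 for *Myd88* (-1.65 to 0.08), against a median of -0.27 over all genes. Without mouse 13 these were -0.51 and -0.71 (adjusted p = 0.82 for both), and the median of all genes was 0.011. Seen within mice, the Ly6Chi excess of *Tlr13* was 1.15 in vehicle and 0.41 in Ac-6-FP mice, and that of *Myd88* 1.16 and 0.38. Of the further pathway genes 0 of 67 passed in Ly6Chi, in Ly6Clo or between them, with 10, 8 and 5 at an unadjusted p under 0.05 (limma), beside the shares of 8.73%, 9.31% and 4.87% of all genes.

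The genes whose levels ran most closely with those of the receptors were then listed by Spearman's rho over the 20 libraries, among 2449 genes without a library at 0. For *Tlr13* these were *Mpeg1* (rho = 0.877), which encodes the pore-forming protein perforin-2 of macrophages, *Msrb1* (0.872) and *Pirb* (0.854), an inhibitory receptor of myeloid cells. For *Cd14* they were *Fn1* (0.827), which encodes fibronectin, *Idh1* (0.8) and *Gyg* (0.792). *Myd88* ran with the ribosomal protein gene *Rpl4* (0.887), *Snx1* (0.832) and *Slfn2* (0.829). *Tlr7* ran with *Pitpnb* (0.78) and *Tlr8* with *Sgk3* (0.743). The libraries share mice, subsets and depth, so these values describe the 20 libraries only. The other receptors had at least 1 library at 0 and were not ranked.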

How the data were processed

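RNA of 20 libraries (2 sorted subsets of 10 mice) was analysed. The authors aligned 75-base reads with STAR 2.4.0 to mm10, counted them on constitutive regions of FAST DB genes and deposited signal values, which are counts divided by a DESeq2 size factor per library. Of the values above 0, 100.0% were whole reads within 0.006 after division by a step per library. A value of 0 allows up to 3 reads, counting error only. The step of the Ly6Chi library of mouse 15 (0.989) is too close to 1 for a separate check of whole reads to pass, although 100.0% of its values were whole, so edgeR was also run without mouse 15.

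With limma 3.58.1 in R 4.3.3, log2(normalized count + 1) of the 17248 genes with a mean of 10 in at least 1 group was compared within mice between subsets and between treatments within each subset, with a variance trend over mean level and Benjamini-Hochberg adjustment (threshold 0.05). Single-gene exact permutation tests were two-sided. Libraries were paired by the mouse number of the labels; residuals of the same mouse had a median correlation of 0.0338, over 0.1 in 1 of 10 mice. Alternatives included edgeR 4.0.16 on recovered reads. Figures and lists used Python 3.11.15.

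Named were the 10 genes, up to 4 called pathway genes per list and comparison, and the 3 genes most alike. *Ly96*, *Unc93b1*, *Lgmn*, *Tnfaip3*, *Nfkbia*, *Tlr3*, *Tlr5* and *Tlr12*, and the marker genes, were named in addition after their values were seen. Members and lists were chosen with earlier results of these data known. Marker lists lacked *Lyz2*, *Trac* and *Serpina1a*, which had no row by that symbol, and *Tril*, *Ifnb1* and *Sarm1* were too low to test.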

Additional observations from a re-analysis of the deposited data

Results flagged for a closer look

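Among 36 groups of 5 libraries, 7 held a library whose Dixon ratio exceeded the critical value of 0.71 for 5 samples. The ratio is the gap to the nearest other library over the range of the group, on the scale of log2(normalized count + 1). Chance flags about 1 in 20 groups. In the Ly6Clo vehicle group the library of mouse 13 was the outlying one for *Tlr2* (0.0), *Tlr4* (0.0), *Tlr6* (0.0) and *Tlr7* (4.17 normalized counts), and in the same library *Tlr8* was at 5764, the highest value of that gene. In Ly6Chi vehicle libraries, *Tlr1* was at 8.56 in mouse 12 and *Tlr6* at 2.90 in mouse 14. In Ly6Chi Ac-6-FP libraries, *Tlr6* was at 2212 (2211.83) in mouse 18, where the other 4 lay between 600 and 741.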

How the results depend on the processing

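Between subsets, 2 of the 9 genes passed with limma. The count was 6 with the count of detected genes as covariate (*Tlr2*, *Tlr4*, *Tlr7*, *Tlr13*, *Cd14* and *Myd88*). Under that setting the genes called higher in Ly6Chi rose from 303 to 979 of all 17248. The count of the 9 genes was 0 with no filter, with a variance prior without trend and with edgeR. It was also 0 in settings added after the data were seen, which were edgeR without mouse 15 and vehicle or Ac-6-FP mice alone. Without the pairing by mouse (no block) it was 1, *Cd14*. With 1 mouse left out it ran from 0 to 2: both calls were lost without mouse 11, 14, 15 or 16, *Cd14* alone passed without mouse 12 or 18, *Tlr13* alone without mouse 19 or 20, *Tlr13* with *Myd88* without mouse 17, and *Tlr2* with *Tlr13* without mouse 13. Pathway genes called numbered 12, or 19 with the covariate, 7 without the trend, 1 in vehicle mice, 6 in Ac-6-FP mice and 7 to 17 with 1 mouse left out (without mouse 16 and 13). For Ac-6-FP in Ly6Chi MoMac, 0 of the 9 genes passed under every alternative, and the pathway count was 0 to 1, the call being *Ccl4* without mouse 11. Over all genes the calls in Ly6Chi went from 13 to 133 without mouse 11 and to 0 without mouse 12, 13 or 15. In Ly6Clo they went from 9 to 103 without mouse 11 and to 0 without mouse 12. Among the 9 genes and the pathway genes, 0 passed under every alternative run for Ac-6-FP in Ly6Clo MoMac and in the test of subset by treatment.

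Some single differences changed sign, none of which had passed, and the cause was not tested. Between subsets, *Tlr7* was at -0.095 in Ac-6-FP mice alone, and with 1 mouse left out *Tlr1* ran from -0.30 to 1.48 and *Tlr6* from -0.12 to 1.99. For Ac-6-FP in Ly6Chi MoMac, edgeR with and without mouse 15 gave -0.61 and -0.54 for *Tlr6* and -0.011 and -0.031 for *Cd14*, which was -0.30 with the covariate. *Myd88* was at -0.038 with quantile normalization, -0.0030 with array weights, -0.12 with the covariate and -0.0098 with edgeR. With 1 mouse left out, *Tlr2* ran from -0.24 to 0.19, *Tlr4* from -0.44 to 0.089, *Tlr6* from -1.04 to 1.36, *Tlr7* from -0.49 to 0.28, *Cd14* from -0.085 to 0.32 and *Myd88* from -0.12 to 0.11. In Ly6Clo MoMac, the covariate gave -0.089 for *Tlr2*, 0.021 for *Tlr8* and -2.83 for *Tlr4*. *Tlr4* was also at -0.30 with a pseudocount of 10, -0.50 with quantile normalization, -0.77 with array weights, and -0.28 and -0.068 with edgeR with and without mouse 15. With 1 mouse left out it ran from -1.78 to 1.34, and *Tlr8* from -0.75 to 0.014. Of all 616 values computed, 541 kept their direction and side of the threshold. With 5 mice a group, the limma intervals for the change with Ac-6-FP included both a fall and a rise for the low receptors *Tlr1*, *Tlr4* and *Tlr6*. In Ly6Chi MoMac they were -1.181 to 4.117, -1.128 to 0.6477 and -3.152 to 4.591. In Ly6Clo MoMac they were -1.485 to 6.215, -4.712 to 4.878 and -1.439 to 6.102. The part of group size in these widths was not tested, nor was that of the 5693049 reads of the Ly6Clo vehicle library of mouse 13.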
